A study of Mus musculus with 12 samples.

Results

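The endothelial cell genes are 36 genes that mark the cells lining blood vessels, and they were looked up by symbol in the authors' 4 deposited tables of soleus RNA. All 36 were among the 28997 genes listed, as their choice required. All had a normalised total of at least 100 reads over the 12 libraries, as did 15494 genes in all. The soleus, a slow postural muscle of the mouse hind limb, was taken from 12 mice in 4 groups of 3. Per the labels, these were Cdh5cre-WT mice on chow, Cdh5Cre-NOX1CKO mice on chow, Cdh5cre-WT mice on a high fat diet and Cdh5Cre-NOX1CKO mice on a high fat diet, each for 8 weeks. The label of every group names a Cre driven from Cdh5, the gene of the endothelial adhesion molecule VE-cadherin. Whether the Cdh5cre-WT mice carry that Cre is not stated beyond this name. The NOX1CKO label is read here as a conditional knockout of Nox1, an NADPH oxidase that makes superoxide, in cells where the Cre acted. The age, sex and strain of the mice, and whether the Cre was inducible, are not given in the sources used here. The series title names NOX1 of the endothelium, obesity and mitochondria of skeletal muscle as the subject. The authors' tables compare groups coded G1 to G4, and the labels do not say which code stands for which mice, so groups are named by code and no difference is assigned to the knockout or to the diet.

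The tables give one value per gene and comparison and none per mouse, so the spread between mice enters through the deposited p-values. An implied standard error (SE) was derived from each log2 fold change and its p-value, and intervals are at 95%. Mean levels of each group were reconstructed from the deposited total and fold changes, per 1000000 normalised reads of the mean library (CPM), and carry no SD. The whole series had a mean of 24905255.5 normalised reads per library, of which the 36 genes took 0.131%. Nox1 itself, the targeted gene, had a total of 25.2 reads over 12 libraries (0.0844 CPM), and the authors' deposited tables gave it a negative log2 in G3 against G1 (-0.23) and G4 against G2 (-0.71) but a positive one in G4 against G3 (0.15). Rebuilt for G2 against G1 it was 0.64. Implied SEs ran from 1.22 to 1.33, so Nox1 was too low in whole muscle to check the labels or the codes.

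Endothelial cells form the inner wall of arteries, capillaries, veins and lymphatics. Their identity is held by ETS factors such as ERG and FLI1 and by SOXF factors (SOX7, SOX17 and SOX18), which bind the regulatory regions of many genes named here. Capillaries run along each muscle fibre and pass oxygen, glucose and fatty acids to it, and slow oxidative muscle is densely supplied with them. VEGF, angiopoietin, sphingosine 1-phosphate, Notch and BMP signals control vessel growth, stability and arterial or venous fate.

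Promoter sequence was drawn from the RefSeq table on GRCm38.p6, in which 20 of the 36 genes had an entry, 24 entries in all. Windows of 250 bases upstream of the start site are shown for 4 genes, the 3 with the smallest p for G4 against G2 and the one with the largest, among genes with a single entry whose window lies outside their own gene body. Of these 4, Eng alone passed the test in that comparison. Members with smaller p-values than Efnb2 and Gja4, S1pr1 among them, did not meet this choice. Capitals mark the ETS core GGAA or its reverse complement TTCC.
Eng, chr2:32646345-32646594, plus strand: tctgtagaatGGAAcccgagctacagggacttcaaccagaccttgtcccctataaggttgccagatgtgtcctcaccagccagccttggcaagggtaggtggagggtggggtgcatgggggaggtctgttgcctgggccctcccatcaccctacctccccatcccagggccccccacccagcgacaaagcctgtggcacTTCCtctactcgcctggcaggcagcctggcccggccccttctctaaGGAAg
Efnb2, chr8:8661243-8661492, minus strand: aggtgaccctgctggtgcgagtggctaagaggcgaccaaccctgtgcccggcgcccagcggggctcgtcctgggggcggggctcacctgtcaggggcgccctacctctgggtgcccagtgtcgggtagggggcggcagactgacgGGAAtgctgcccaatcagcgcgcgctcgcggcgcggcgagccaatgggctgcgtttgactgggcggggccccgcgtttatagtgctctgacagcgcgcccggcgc
Gja4, chr4:127314040-127314289, minus strand: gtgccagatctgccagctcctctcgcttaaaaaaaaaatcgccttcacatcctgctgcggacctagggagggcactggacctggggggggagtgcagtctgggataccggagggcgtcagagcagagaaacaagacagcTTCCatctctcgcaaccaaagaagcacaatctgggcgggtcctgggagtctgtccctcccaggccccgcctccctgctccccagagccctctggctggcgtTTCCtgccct
Tek, chr4:94739039-94739288, plus strand: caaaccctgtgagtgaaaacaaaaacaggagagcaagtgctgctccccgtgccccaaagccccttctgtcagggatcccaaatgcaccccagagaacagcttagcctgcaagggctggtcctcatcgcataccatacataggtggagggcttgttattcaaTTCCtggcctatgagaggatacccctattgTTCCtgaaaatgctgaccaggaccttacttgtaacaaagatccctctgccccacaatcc
The Eng window held 3 ETS cores, that of Efnb2 held 1, and those of Gja4 and Tek held 2 each. An ETS core was thus present in each of the 4 windows. On either strand, GGAA was in 91.7% of the 24 entries, in 93.4% of all 32851 entries and in 92.9% of the 13553 entries of genes with a total of at least 100. The longer ETS site CAGGAAGT, which contains GGAA, was in 4.17% of the entries (Egfl7 alone), against 2.69% of all entries and 2.62% of those of genes with such totals. The SOX core AACAAT was in 12.5% (Emcn, Erg and Tek), against 9.42% and 5.40%. The forkhead core TAAACA was in 4.17% (Clec14a alone), against 12.03% and 7.97%. These matches are descriptions of letters in a window and not binding sites.

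The most abundant of the 36 per transcript length was Cdh5 (8:104101625-104144511, GRCm38, plus strand), at a mean of 43.3 CPM per kilobase over the 4 groups. It was followed by Pecam1, which encodes the platelet and endothelial adhesion molecule PECAM-1, at 31.5 CPM per kilobase, and by Cd34, a surface sialomucin, at 22.6. Eng, the TGF-beta co-receptor endoglin, had 20.3 CPM per kilobase and Egfl7, a secreted matrix protein, 18.1. Junction and surface genes therefore led the order, although Cd34 is also made by other stromal cells. Agpat2 overlaps Egfl7 on the opposite strand, with a total of 41.0% of that of Egfl7. Among the VEGF receptors, Flt1 (VEGFR1) had 15.8 CPM per kilobase and Kdr (VEGFR2) 13.1, close to S1pr1, a sphingosine 1-phosphate receptor, at 13.7. Ptprb, the phosphatase VE-PTP that acts on TIE2 and VE-cadherin, had 12.4, Ramp2, a partner of the adrenomedullin receptor, 12.3, and Esam, an adhesion molecule, 13.9. The angiopoietin receptors Tie1 and Tek (TIE2) stood at 10.4 and 6.61 CPM per kilobase.

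The other surface genes and receptors spread over the rest of the order. Plvap, the diaphragm protein of fenestrae and caveolae, had 10.04 CPM per kilobase, Mmrn2, a matrix protein of the endothelial surface, 7.36, and Cldn5, the tight junction protein claudin-5, 7.33. Vwf, which encodes von Willebrand factor of platelet adhesion, had 4.67, the sialomucin Emcn 4.596, the adhesion molecule Icam2 4.27 and the lectin-like receptor gene Clec14a 1.96. Rasip1, a regulator of lumen formation, had 6.96, Aplnr, the apelin receptor, 4.58, Acvrl1, the BMP receptor ALK1, 4.47, and Robo4, a guidance receptor that supports barrier function, 4.29.

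Transcription factors and arterial genes lay within the same range, Sox18 the highest of them and Bmx the lowest. Sox18 had 10.4 CPM per kilobase, Erg 5.02, Sox7 4.14, Fli1 3.83 and Sox17 2.63. Of the arterial genes, Notch4 had 3.18 CPM per kilobase, the Notch ligand Dll4 3.08, the ephrin Efnb2 3.01, and the gap junction genes Gja4 (connexin 37) and Gja5 (connexin 40) 2.91 and 1.08. The venous receptor Ephb4, at 6.69, was above its arterial ligand Efnb2. The lowest was Bmx, a kinase of arterial endothelium, at 0.199 CPM per kilobase and a total of 178.6 reads. The defining endothelial markers were thus all detected in this bulk muscle RNA.

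**Figure D1:**
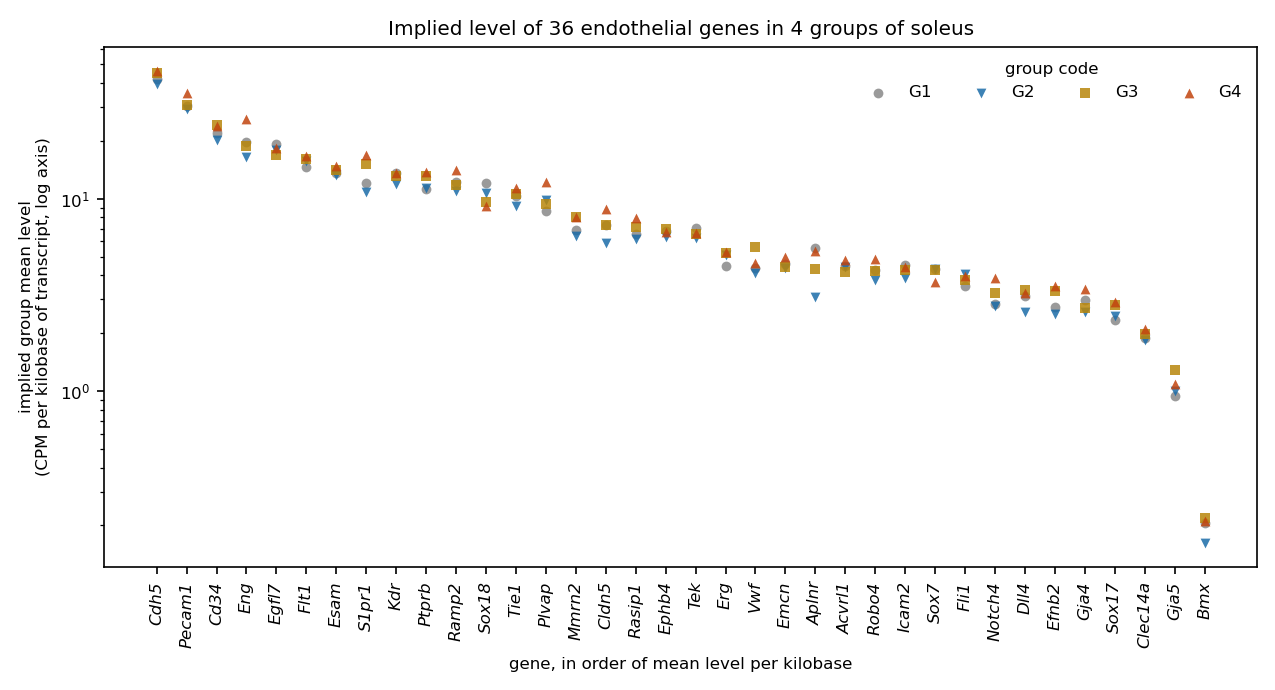
Mean level of each of the 36 genes per group, in CPM per kilobase of transcript on a log axis, with 1 marker per group (circles G1, down triangles G2, squares G3, up triangles G4) and genes ordered by their mean. Cdh5 leads at a mean of 43.3 and Bmx is last at 0.199, and the 4 markers of a gene lie close together compared with the range over the 36 genes.

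Between groups the levels differed little. The ratio of the highest to the lowest group ran from 1.10 (Ephb4) to 1.79 (Aplnr) with a median of 1.24, and it was under 1.5 for 32 of the 36. The summed level of the 36 genes was 1267 CPM (G1), 1197 (G2), 1341 (G3) and 1435 (G4). The lowest level was in G2 for 25 genes, against 26.0% of all genes with a total of at least 100. The highest level was in G4 for 21 genes, against 27.8% of all genes. G1 was lowest for 7 genes and highest for 7, against 20.0% and 21.1% of all genes. G3 was lowest for 2 and highest for 7, against 26.7% and 25.5%. In whole muscle, fewer endothelial cells and less RNA per endothelial cell cannot be told apart.

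**Figure D2:**
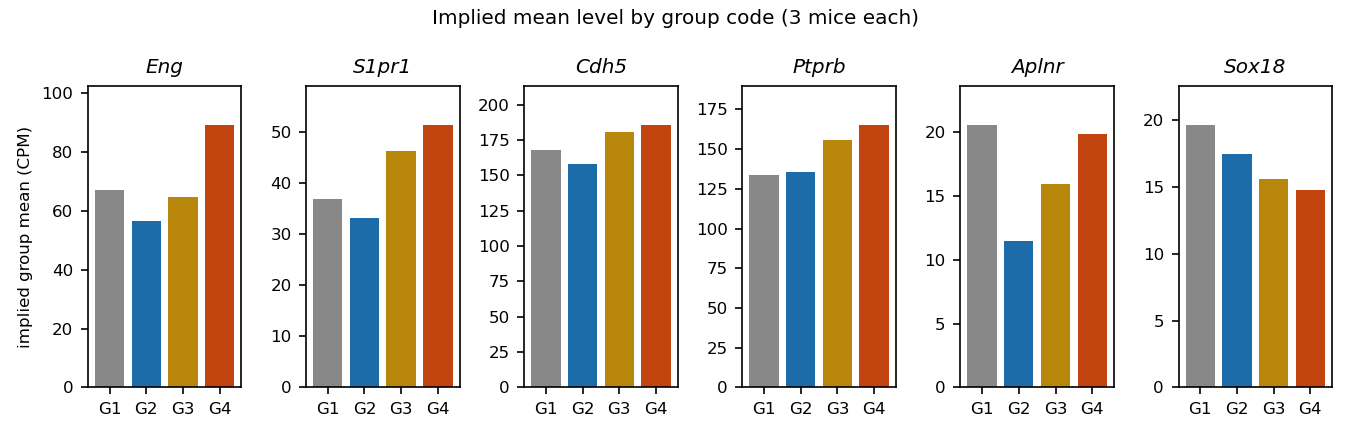
Mean level of 6 of the genes in each group, in CPM, as bars from 0 without error bars, because the tables hold no values per mouse. Eng stands out in G4 (89.1), S1pr1, Cdh5 and Ptprb are higher in G3 and G4 than in G1 and G2, Aplnr is lowest in G2 (11.5), and Sox18 is highest in G1 (19.6).

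G4 against G2 was the comparison in which the genes differed most. In the authors' deposited table, Eng and S1pr1 rose, 33 of the 36 log2 values were above 0 and their median was 0.24, against a median of 3.41e-04 over all genes with a total of at least 100. These 2 are 5.56% of the 36, where 1.38% of all genes with an adjusted p were called in that table (adjusted p under 0.05) and 1.02% were called higher. At an unadjusted p under 0.05, 9 of the 36 were higher and 0 lower, against 5.23% higher and 3.83% lower among all genes with a total of at least 100. The other 34 did not pass the adjusted threshold.

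Eng (2:32646595-32682669, plus strand) had a mean level of 67.2 CPM (G1), 56.4 (G2), 64.7 (G3) and 89.1 (G4). G4 stood above the other 3 groups, of which G2 was the lowest. In the authors' deposited table for G2 against G1 the log2 was -0.25 (p 0.166), which did not pass. In the authors' deposited table for G4 against G2 the log2 was 0.66 (implied SE 0.182, interval 0.302 to 1.02), 1.58-fold, with p 2.97e-04 and adjusted p 0.0283. The call was lost with no filter on totals (adjusted p 0.0556), with trends on GC content, length and total removed (log2 0.60, adjusted p 0.0802), and with the stricter Benjamini-Yekutieli adjustment (adjusted p 0.287). In the authors' deposited table for G4 against G3 the log2 was 0.46 with p 0.0112 and adjusted p 0.958, so that difference did not pass. Fpgs overlaps Eng on the opposite strand, with a total of 4.87% of that of Eng.

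S1pr1 (3:115710433-115715072, minus strand), whose receptor stabilises junctions and restrains sprouting, had 36.8 CPM (G1), 33.2 (G2), 46.1 (G3) and 51.3 (G4). G3 and G4 both lay above G1 and G2. In the authors' deposited table for G4 against G2 the log2 was 0.63 (implied SE 0.164, interval 0.306 to 0.951), 1.55-fold, with p 1.32e-04 and adjusted p 0.0163. For G3 against G1, whose fold change uses the other 6 mice, the authors' deposited table gave 0.33 (implied SE 0.164, p 0.0476, adjusted p 1). The implied SE of S1pr1 was nearly equal in all 4 comparisons (0.165, 0.164, 0.164 and 0.164). The error thus appears to be fitted over all 12 libraries, and these p-values are not independent evidence from separate mice. The mean of these comparisons, 6 mice against 6 mice, was 0.48 (SE 0.116, interval 0.249 to 0.705), 1.39-fold, with p 4.06e-05 and an adjusted p of 0.00533 by a normal test over 15494 genes. The difference between these comparisons was 0.30 (SE 0.233, adjusted p 0.9997), and did not pass. Under Benjamini-Yekutieli adjustment neither call of S1pr1 held (adjusted p 0.165 for G4 against G2 and 0.0545 for the mean).

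Cdh5 itself did not pass in any comparison. Its level was 168 CPM (G1), 158 (G2), 181 (G3) and 185 (G4), and in the authors' deposited table for G4 against G2 its log2 was 0.23 (interval -0.0504 to 0.510, adjusted p 0.681). Averaged with G3 against G1 it was 0.17 (interval -0.0294 to 0.367). Each interval reaches from just below 0 to an increase, so neither an absence of change nor a rise is shown for it.

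By role, all 11 junction and surface genes had a positive log2 in the authors' deposited table for G4 against G2, with a median of 0.23, and none passed. Cldn5 was at 10.3 CPM (G1), 8.32 (G2), 10.3 (G3) and 12.5 (G4), and the authors' deposited table gave a log2 of 0.59 with an implied SE of 0.358 and adjusted p 0.666. Its ratio of 1.51-fold was thus near that of S1pr1, with a larger error. Pecam1 had 105 CPM (G1), 100 (G2), 105 (G3) and 123 (G4), and Plvap 17.3, 19.5, 18.8 and 24.2. Both were highest in G4 without passing the test. The 10 genes other than Cldn5 ran in the authors' deposited table from 0.16 (Esam) to 0.32 (Mmrn2), with Vwf, Icam2, Emcn, Clec14a, Cdh5, Cd34, Pecam1 and Plvap between them.

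All 9 receptors and their phosphatase were also positive in the authors' deposited table for G4 against G2, with a median of 0.31 and S1pr1 the one that passed. Aplnr had in the authors' deposited table the largest log2 of the 36, at 0.79, with an implied SE of 0.447 and adjusted p 0.622. Its levels were 20.6 CPM (G1), 11.5 (G2), 15.9 (G3) and 19.9 (G4), so G2 was low and G1 and G4 alike. Ramp2 had 18.1, 16.2, 17.4 and 20.9 CPM in the same order and a log2 of 0.37 in the authors' deposited table (p 0.00668, adjusted p 0.202). Vps25 overlaps Ramp2 on the same strand with a total of 163% of that of Ramp2, so reads of the pair may not be fully separable. Robo4 also had 0.37 there (p 0.00945, adjusted p 0.248), and Ptprb had 0.28 (p 0.0126, adjusted p 0.289), with levels of 134, 136, 156 and 165 CPM in G1 to G4. For Ptprb the mean with G3 against G1 was 0.25 (SE 0.0800, adjusted p 0.0747), just outside the threshold.

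The VEGF receptors and Tek differed less. Kdr was at 81.2 CPM (G1), 70.7 (G2), 78.0 (G3) and 80.7 (G4), Flt1 at 100.5, 109, 110.5 and 115, and Tek at 32.7, 29.0, 30.6 and 30.7. Tie1 was at 43.8, 38.9, 44.7 and 48.3 CPM, the largest ratio of highest to lowest group of these 4 genes (1.24). In the authors' deposited table for G4 against G2, the log2 was 0.19 for Kdr, 0.08 for Flt1, 0.08 for Tek and 0.31 for Tie1. Implied SEs differed among the members: for G4 against G2 that of Kdr was 0.332, and 2.98% of the 10668 genes reaching a total of 1000 exceeded it, and that of Ptprb was 0.113, where the median of those genes was 0.136. Kdr was thus measured with less precision than most genes of such totals.

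The TGF-beta and BMP receptors are Eng and Acvrl1, whose product ALK1 is the receptor with which endoglin acts. Acvrl1 was at 16.2 CPM (G1), 16.1 (G2), 15.1 (G3) and 17.6 (G4), a narrower range than that of Eng. Its log2 for G4 against G2 in the authors' deposited table was 0.12 and did not pass.

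All 7 arterial, venous, Notch and gap junction genes had positive values in the authors' deposited table for G4 against G2, with a median of 0.38 and none called. Notch4 was at 18.7 CPM (G1), 18.2 (G2), 21.4 (G3) and 25.7 (G4), with a log2 of 0.49 in the authors' deposited table (p 0.0177, adjusted p 0.342). Efnb2 was at 13.1, 12, 15.8 and 16.8 CPM, with 0.48 there (p 0.0234, adjusted p 0.392). Both were higher in G3 and G4 than in G1 and G2. Gja4 had 0.41, Bmx 0.38 and Dll4 0.34 in the authors' deposited table, while Gja5 (0.11) and Ephb4 (0.08) were smaller. The Gja4 and Tek promoters printed above held equal numbers of ETS cores. Of the secreted and cytoplasmic regulators, Rasip1 had 0.35 in the authors' deposited table and Egfl7 0.04.

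Transcription factors did not follow the other roles. Of the 5, 2 were positive in the authors' deposited table for G4 against G2 and the median was -0.03, with Sox18 at -0.24, Sox7 at -0.22 and Fli1 at -0.03, while Erg had 0.06 and Sox17 0.23. Their summed level was 67.8 CPM (G1), 69.5 (G2), 68.3 (G3) and 66.8 (G4), whereas each of the other 5 roles had its highest sum in G4. Sox18 was at 19.6 CPM (G1), 17.5 (G2), 15.6 (G3) and 14.8 (G4), and Sox7 at 14.2, 14.2, 14.1 and 12.2. Both had their highest level in G1 and their lowest in G4. None of the 5 passed the test in any comparison, and whether the factors differ from the other roles was not tested.

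**Figure D3:**
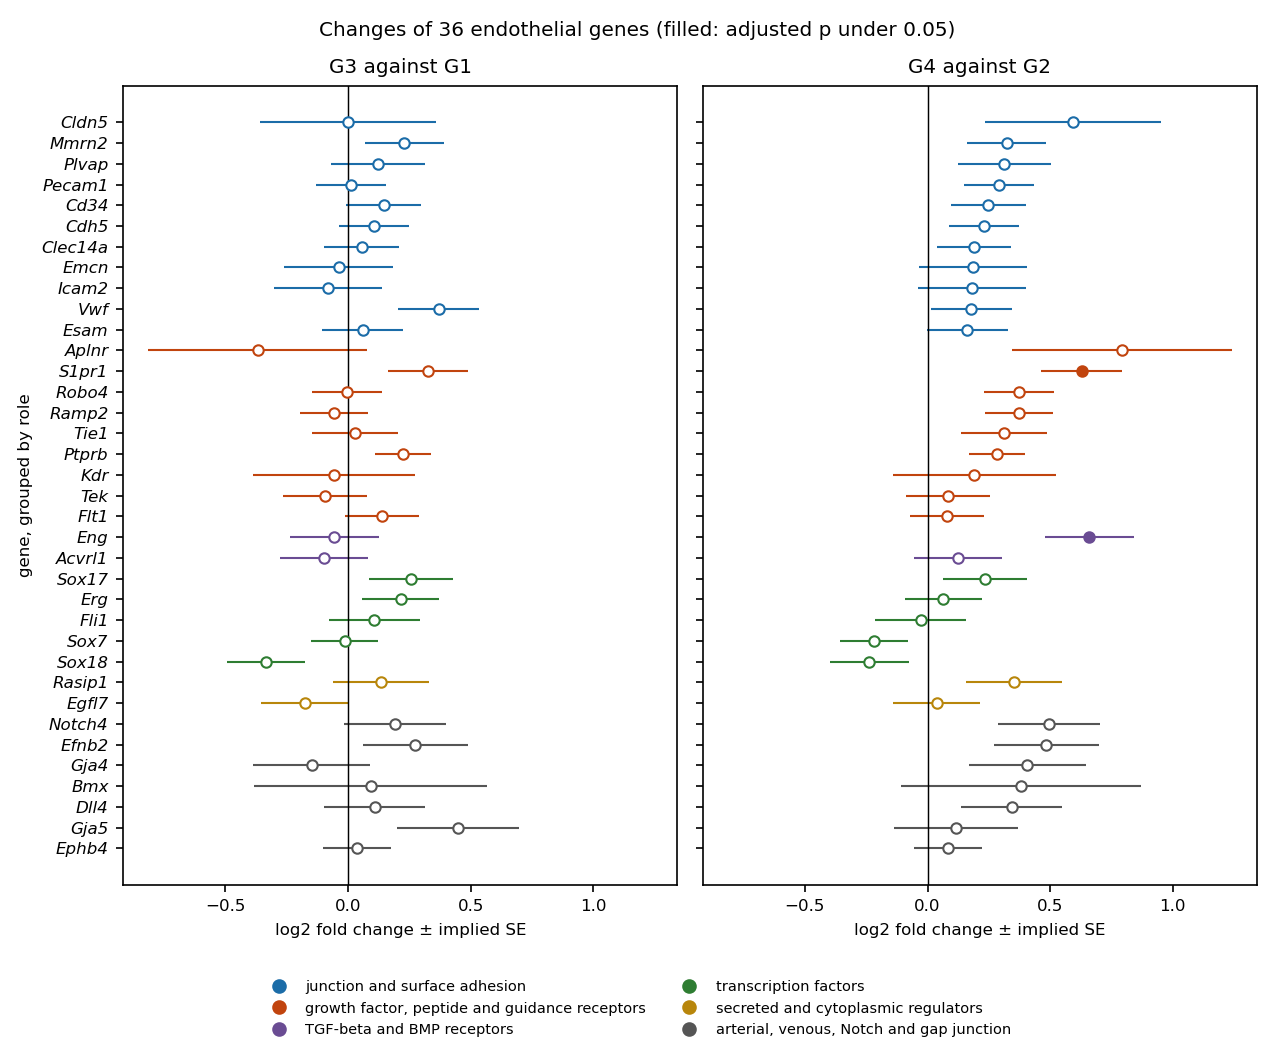
Log2 difference of each gene for G3 against G1 and for G4 against G2, with bars of 1 implied SE either way and genes grouped and coloured by role. Filled points are the calls, Eng (0.66) and S1pr1 (0.63) in G4 against G2, and the bars of Aplnr, Cldn5, Bmx and Kdr are the widest.

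In G3 against G1, whose mice are not those of G4 against G2, no gene of the 36 passed in the authors' deposited table, where 0.21% of all genes were called. There, 22 of the 36 were positive, with a median of 0.06 against 3.16e-04 over all genes. At an unadjusted p under 0.05, Vwf (0.37), S1pr1 (0.33) and Ptprb (0.22) were higher in the authors' deposited table and Sox18 (-0.33) was lower, 4 of 36 against 5.63% of all genes. The largest log2 was that of Gja5, 0.45 in the authors' deposited table (implied SE 0.250, p 0.0734), but Gpr89 overlaps it on the opposite strand with a total of 364% of that of Gja5. Aplnr, at -0.37, was the most negative.

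Across both of these comparisons, 21 of the 36 were positive in each, and Sox7 and Sox18 were negative in each. A further 12 were negative for G3 against G1 and positive for G4 against G2, and Fli1 was the reverse. With 22 and 33 of the 36 positive in the separate comparisons, most of that overlap follows from these counts. Its share over all genes was not computed. The value was larger in G4 against G2 for 29 of the 36, against 51.5% of all genes with a total of at least 100. The difference between the comparisons had a median of 0.21 over the 36, and no member passed the test of it, where 0.00645% of all genes did. At an unadjusted p under 0.05 there were 2, against 4.12% of all genes. Eng came nearest at 0.71 (SE 0.258, p 0.00558, adjusted p 0.970), followed by Ramp2 at 0.43 (p 0.0270, adjusted p 0.9997), and Aplnr had the largest at 1.16 (SE 0.632). A difference between the pairs of groups is thus not shown for any single gene of the 36.

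Averaged over both comparisons, 32 of the 36 were positive with a median of 0.17, and S1pr1 was the one called, where 1.65% of all genes were called and 1.21% were called higher. Unadjusted, 8 were higher and 1 lower at a p under 0.05, against 5.56% and 4.18% of all genes. Efnb2 had 0.38 (p 0.0120, adjusted p 0.257), Notch4 0.34 (p 0.0201, adjusted p 0.334) and Eng 0.30 (p 0.0191, adjusted p 0.326). Vwf had 0.27 (adjusted p 0.325), and Sox18 was the one lower, at -0.29 (p 0.0111, adjusted p 0.247).

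G2 against G1 shares G2 with the comparison above, so its signs are not independent of it. The authors' deposited table lists only values of 0 or below for it, which covers 29 of the 36, and the other 7 (Flt1, Erg, Fli1, Sox17, Plvap, Ptprb and Gja5) were rebuilt from the other tables. The median of the 36 was -0.10, none passed, where 0.00645% of all genes were called, and none had an unadjusted p under 0.05, against 2.35% of all genes. Aplnr had the largest value, -0.84 in the authors' deposited table (implied SE 0.447, p 0.0591), followed by Bmx (-0.34), Cldn5 (-0.31), Dll4 (-0.28) and Eng (-0.25).

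For G4 against G3, 27 of the 36 were positive in the authors' deposited table with a median of 0.07. None passed, where 0.0394% of all genes with an adjusted p were called. Eng alone had an unadjusted p under 0.05, against 4.83% of all genes. After Eng, the largest values in the authors' deposited table were Plvap (0.37, p 0.0532), Gja4 (0.34) and Aplnr (0.32), and Vwf was at -0.28. Gtpbp3 overlaps Plvap on the opposite strand with a total of 42.1% of that of Plvap. Averaged with G2 against G1, 19 of 36 were positive, the median was 0.00 and none was called, where 0.0452% of all genes were. Plvap, at 0.27 (SE 0.135, p 0.0436, adjusted p 0.9995), was the one with an unadjusted p under 0.05, against 3.12% of all genes.

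Other genes of endothelial pathways gave 1 or 2 calls in 3 of 5 lists, to be read against the 1.38% of all genes called for G4 against G2. For G4 against G2 in the authors' deposited table, the VEGF and angiopoietin list had 14 of 18 positive, a median of 0.19 and 1 call, Flt4 (VEGFR3), at 0.45 (adjusted p 0.0364). Angpt2, an angiopoietin that can antagonise TIE2, had 0.86 there (adjusted p 0.116). The Notch, BMP and arteriovenous list had 8 of 23 positive, a median of -0.06 and 0 calls in the authors' deposited table, where the 7 arterial, venous, Notch and gap junction genes above were all positive. Values of that list ran from -0.60 to 0.39. Hey1, a Notch target, had -0.41 there (p 0.0982) and was not the gene with the smallest p. At an unadjusted p under 0.05, 1 gene of that list was higher and 0 were lower. Those shares were 5.23% and 3.83% over all genes with a total of at least 100.

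The nitric oxide, flow and coagulation list had 15 of 20 positive, a median of 0.24 and 0 calls in the authors' deposited table for G4 against G2. Its smallest p-values were those of the caveolar genes Cav2 (0.39, adjusted p 0.143), Cavin1 (0.26, adjusted p 0.191) and Cav1 (0.31, adjusted p 0.198), which many cell types share. In the junction and adhesion list, 13 of 16 were positive in the authors' deposited table with a median of 0.14, and Gja1 (connexin 43) was the one called, at 0.84 (implied SE 0.200, adjusted p 0.00512). Which cell type of whole muscle the Gja1 call comes from was not tested.

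The capillary and lipid handling list had 15 of 16 positive, a median of 0.36 and 2 calls (12.5%, where 1.38% of all genes were called) in the authors' deposited table for G4 against G2. These were the fatty acid transporter Cd36 (0.41, adjusted p 0.00786) and the fatty acid binding protein Fabp4 (0.37, adjusted p 0.0254), and both genes are also made by adipocytes and Cd36 by muscle fibres. Tcf15, a transcription factor of muscle capillaries with MEOX2, had 0.96 there (adjusted p 0.0786). No gene of these 5 lists was called for G2 against G1, G3 against G1 or G4 against G3.

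Markers of other cell types also differed between the groups. The summed level of 14 macrophage markers was 128 CPM (G1), 93.7 (G2), 115 (G3) and 114 (G4), and that of 7 red blood cell genes was 179, 112, 170.2 and 148. Both were lowest in G2, as were the endothelial sum and those of other white blood cells and Schwann cells. For G4 against G2 in the authors' deposited table, 9 of 14 macrophage markers were positive (median 0.25) and all 5 red cell genes with a total of at least 100 (median 0.40), with none called. For G2 against G1 none of these 14 and 5 was positive.

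The 10 listed markers of other white blood cells summed to 6.78, 4.52, 6.60 and 5.26 CPM, with Ly6g not among the genes listed. Adipocyte markers summed to 1498, 1836, 1722 and 1986 CPM, of which Car3, also a slow fibre gene, was 87.5%. For G2 against G1, 1 of the 9 was positive (median -0.60), opposite to the direction of the sum, and 7 of 9 were positive for G4 against G2 in the authors' deposited table (median 0.37), Fabp4 being the one called. Lymphatic markers summed to 52.6, 56.6, 54.8 and 53.4 CPM, with 3 of 7 positive (median -0.05) and Flt4 called in the authors' deposited table for G4 against G2. The 12 pericyte and smooth muscle markers summed to 1003, 1065, 1073 and 1048 CPM, with a median of 0.07. The wall cells around the vessels thus had a narrower range of sums than the 36 endothelial genes, but Rgs5 was 42.9% of their sum. In the authors' deposited table for G4 against G2, their markers ran from -0.36 to 0.37. Of these 12, 1 was higher and 2 lower at an unadjusted p under 0.05. Those shares were 5.23% and 3.83% over all genes with a total of at least 100.

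Fibroblast markers summed to 1072, 1024, 1192 and 1009.5 CPM, and Smoc2 (0.50) and Lum (0.58) were called for G3 against G1 in the authors' deposited table, 2 of 10 where 0.21% of all genes were called. Schwann cell markers summed to 101, 83.7, 91.3 and 86.9 CPM, and 5 of 9 were positive for G4 against G2 in the authors' deposited table (median 0.02). Satellite cell markers summed to 4046, 4111, 4069.9 and 4181 CPM, of which Des, also a muscle fibre gene, was 99.4%. Muscle fibre genes summed to 98835, 103841, 91736 and 93365 CPM, and 1 of 15 was positive for G4 against G2 in the authors' deposited table, with a median of -0.18. The part of these other cell types in the endothelial values was not tested.

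**Figure D4:**
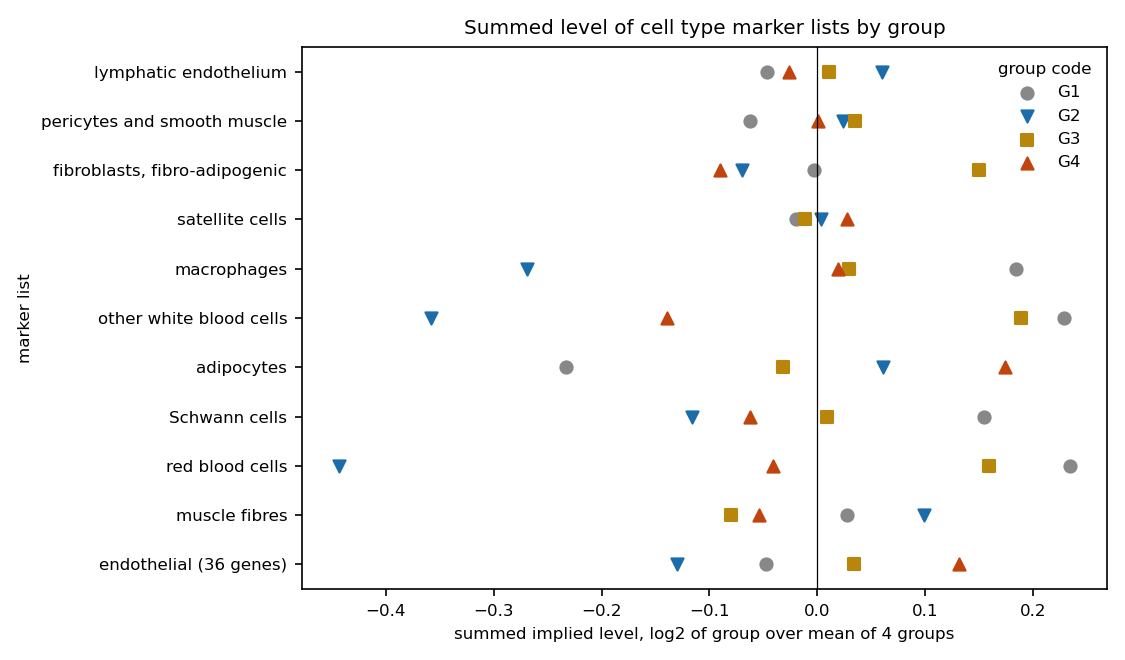
Summed level of each cell type's marker list in G1 to G4 as a log2 difference from its mean over the 4 groups, with 1 marker per group. The endothelial, macrophage, red blood cell, other white blood cell and Schwann cell lists are lowest in G2 (1197, 93.7, 112, 4.52 and 83.7 CPM), and the muscle fibre list is highest there (103841 CPM).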

How the data were processed

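RNA from soleus muscle of 12 mice was sequenced after stranded mRNA library preparation (KAPA kit, per the labels). The submitters' processing notes name the mm10 and GRCm38 builds, RSEM 1.2.15, Bowtie2 2.1.0 and edgeR, with no role stated. The sources used here do not say whether counting used strand. The 4 deposited tables hold the authors' comparisons, whose totals per gene are a normalised read signal summed over libraries, per the file headers and values. Each also holds the authors' deposited p-value, step-up adjusted p-value, log2 fold change and signed fold change, which is a score below 0 for falls. Adjusted p-values were blank for 14458 genes in G4 against G2 and 11245 in G4 against G3, and stayed blank. The mice are labelled as separate animals.

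With no values per library, edgeR's quasi-likelihood test, planned for counts, could not be run, and the deposited p-values were used. The implied SE is the log2 divided by the normal quantile of its p-value. G2 against G1 was rebuilt, for genes that table does not list, from the other 3 comparisons (the sum of those against G1 and G3, less the one against G2). On 7792 listed genes the rebuilt log2 differed by at most 1.02e-14. Interaction and means used normal tests, with Benjamini-Hochberg adjustment over 15494 genes with a total of at least 100. Group levels divide the total by the fold changes, per kilobase of the longest coding transcript of GENCODE M21. The scripts (Python 3.11.15, pandas 2.3.3, scipy 1.17.1) were tested on simulated data. Depth limits low genes: a total of 100 is a mean of 8.33 reads per library.

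The 36 genes, the roles and the lists were chosen with earlier results of these data known. Full values are given for called genes, Nox1, Cdh5 and the 5 largest changes per comparison. In the pathway and marker lists, called genes and up to 4 with the smallest p-values are named. Other members that are named, and the overlapping genes, were chosen after their values were seen. Alternatives were other filters, recentring, trend removal, a 1.5-fold minimum and Benjamini-Yekutieli adjustment.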

Additional observations from a re-analysis of the deposited data

How the results depend on the processing

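For G4 against G2 the count of endothelial genes called was 2, and it was 1 with no filter on totals, 1 with trends on GC content, length and total removed, and 0 with Benjamini-Yekutieli adjustment. Eng then had adjusted p-values of 0.0556, 0.0802 and 0.287, and S1pr1 had 0.165 under Benjamini-Yekutieli adjustment. Over all genes, 200 were called for G4 against G2, 118 at 1.5-fold or more and 71 under Benjamini-Yekutieli adjustment. For G3 against G1 the counts were 61, 25 and 32, with 0 of the 36 in each. For the mean of G3 against G1 and G4 against G2 the count of endothelial genes was 1, and it was 0 where a fold change of at least 1.5 was also required and 0 with Benjamini-Yekutieli adjustment (S1pr1 adjusted p 0.0545). Over all genes, 255 were called for that mean, 95 with the fold required and 116 with Benjamini-Yekutieli adjustment. S1pr1 in the mean of G2 against G1 and G4 against G3 turned from 0.00 to -0.0163 with trends removed, and was not called either way. The causes were not tested. Recentring and a total of at least 1000 changed no count of calls among the 36.

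No paired analysis was possible because the animal numbers of the labels are not shared between groups and the tables hold no values per library. For the same reason, leaving out each replicate was not run, and no mouse's influence on Eng or S1pr1 is known. The values rest on 3 mice per group. The label of every group names a Cre driven from Cdh5, so no group is known to show the muscle without it.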
